A study of Homo sapiens with 8 samples.

Results

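Interferon-stimulated effector genes are the genes that carry out much of the antiviral work of a cell once interferon signalling is on. They encode ubiquitin-like modifiers, RNA-binding proteins, membrane barriers to virus entry, large GTPases, mono-ADP-ribosyltransferases and TRIM ubiquitin ligases. The 48 genes described here were chosen by their symbols, and all 48 were found among the 19414 genes of the deposited tables. OAS genes, RNA sensors and MHC class I genes are not among them and are used only for context. As background, type I interferon acts through the receptor chains IFNAR1 and IFNAR2 and the kinases JAK1 and TYK2, and transcription factors of the STAT and IRF families then bind a promoter element called ISRE. A second element, called GAS, is bound after interferon gamma. In cells without an infection these genes are usually low, and double-stranded RNA or displaced DNA in the cytoplasm can also turn them on through sensors that lead to interferon.

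U2OS, an established human osteosarcoma cell line, was profiled by RNA-seq of total RNA. WT cells carry neither introduced factor, MYC cells overexpress the transcription factor MYC, Zab cells carry Zab, and Zab+MYC cells carry both, with 2 libraries for each genotype. Zab stands for Zαβ, a name generally used for the domains by which ADAR1, an enzyme that edits RNA, binds Z-form nucleic acids, and the labels describe neither the construct, its promoter nor whether a line is 1 clone. The title of the series names Z-DNA and the histone chaperone FACT beside MYC, and the comparisons below ask how the effector genes differ with Zab, with MYC and with both.

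Because the effector genes share a promoter element, the sequences that hold it are shown first. Promoters of 40 members were found in the RefSeq table (GRCh38.p14), and the 250 bases before each start were searched on both strands for the ISRE core GAAANNGAAA, the GAS core TTCNNNGAA and the E-box CACGTG, the site that MYC and its partner MAX bind. Matches were allowed to overlap each other and the other motifs. The ISRE core was present in 24 of 40 member promoters (60%), against 3.02% of all 35116 promoters in the table and 2.21% of the 7889 promoters of tested genes. The GAS core was present in 7 of 40 (17.5%), against 6.57% of all promoters and 5.31% of those of tested genes. The E-box was present in 3 of 40 (7.5%), those of HERC5, ISG20 and TRIM25. It was present in 6.35% of all promoters, 7.88% of those of genes in the deposited tables and 9.47% of those of tested genes. The following windows of 60 bases run 5′ to 3′ on the strand of the gene, and capitals mark the matches to the ISRE core or its reverse complement. They belong to 7 genes that were higher in Zab and to TRIM5, which was not.
ISG15 (chr1:1013365-1013424, plus strand): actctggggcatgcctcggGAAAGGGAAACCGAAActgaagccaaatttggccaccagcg
IFI6 (chr1:27672251-27672310, minus strand): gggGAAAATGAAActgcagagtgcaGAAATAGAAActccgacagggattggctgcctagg
IFI44L (chr1:78620350-78620409, plus strand): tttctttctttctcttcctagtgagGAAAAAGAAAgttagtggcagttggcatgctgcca
IFI27 (chr14:94110616-94110675, plus strand): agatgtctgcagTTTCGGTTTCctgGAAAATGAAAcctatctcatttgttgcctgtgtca
IFIT1 (chr10:89392495-89392554, plus strand): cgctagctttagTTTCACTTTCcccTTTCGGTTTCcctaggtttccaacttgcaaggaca
IFITM1 (chr11:313975-314034, plus strand): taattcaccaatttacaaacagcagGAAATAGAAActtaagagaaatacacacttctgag
IFITM3 (chr11:320861-320920, minus strand): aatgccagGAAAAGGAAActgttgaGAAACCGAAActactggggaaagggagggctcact
TRIM5 (chr11:5685075-5685134, minus strand): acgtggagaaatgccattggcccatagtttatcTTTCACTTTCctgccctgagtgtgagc
ISG15 holds 2 overlapping matches on its own strand, IFIT1 holds 2 on the other strand, and IFI27 holds 1 on each. A match describes letters in a promoter and does not show that a factor binds there.

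**Figure D1:**
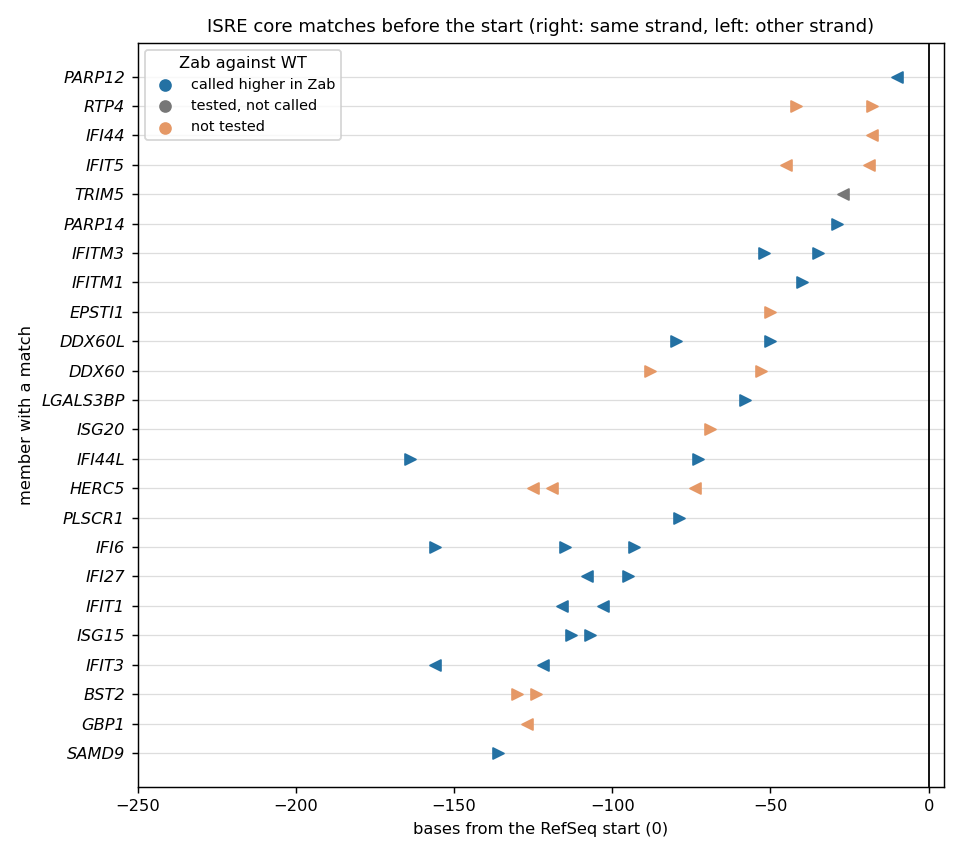
Positions of ISRE core matches in the 24 member promoters that hold one. The x axis gives bases before the RefSeq start, each triangle is 1 match pointing right for the strand of the gene and left for the other, and colour gives the call in Zab against WT. Of members with a promoter, matches lie in 14 of 23 higher in Zab (60.9%) and 1 of 3 tested without a call (TRIM5). They also lie in 9 of 14 too low to be tested (64.3%), so the share does not set apart those higher in Zab.

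Exon tags, the sequenced fragments assigned to exons of a gene, numbered 686992 to 1326170 per library, and a depth this low leaves weakly expressed effectors with few tags. Levels are given in CPM, tags divided by the TMM-scaled library total and multiplied by 1e6. The libraries of each genotype differed by no more than counting noise (chi-square per gene 1.03 for WT, 1.0 for MYC, 1.01 for Zab, 0.997 for Zab+MYC), so each genotype is counted as 1 sample. No comparison of genotypes therefore has a replicate check. Fold differences are given on the summed tags with exact 95% intervals (Clopper-Pearson) for counting error only, since the reads carry no molecular identifiers and several can come from 1 molecule. Calls come from limma on log2(CPM + 2), with adjusted p under 0.05. They compare these libraries rather than the genotypes at large, since the labels do not state whether a pair came from separate cultures. ADAR, whose tags include any Zab transcript, gave 264 and 270 CPM in the WT libraries, 247 and 230 with MYC, 6003 and 6198 with Zab and 1068 and 1019 with both. MYC stood at 72.6 and 94.8, 1237 and 1290, 230 and 194, and 707 and 705 CPM in the same order. Exons took 70.9% of tags for WT, 76.0% for MYC, 60.8% for Zab and 69.1% for Zab+MYC. The 12 mesenchymal and osteoblast markers summed to 11179 to 11343 CPM for WT and 5779 to 5938 for MYC. For Zab the sum was 9343 to 9697 and for Zab+MYC 8243 to 8342. Most of each sum was VIM, with means of 7169, 4872, 6577 and 6789 CPM in the same order. SPARC and COL1A1 followed in WT (1849 and 1140 CPM). Other markers were low, with RUNX2 at 19.3 and SPP1 at 13.8 CPM in WT. COL1A2 had 0 tags in WT, MYC and Zab and 1 over Zab+MYC. The sum therefore does not check the label of an osteosarcoma line. Leukocyte markers summed to between 6.33 and 13.5 CPM in all 8 libraries, with 5 or 6 of 10 at 0 in each genotype. Epithelial markers summed to between 2.80 and 18.9 CPM and endothelial markers to between 0.793 and 6.46. The ADAR level, the MYC level, the exon share and the mesenchymal sum thus moved with the genotypes compared below, and their part in those results was not tested.

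Of the 48 effector genes, 29 passed the filter on low values and were tested among 9673 genes. The filter asked for 11.7 tags per 1e6 exon tags in 2 libraries. HERC6, IFIT3, DDX60L, SAMD9L, IFITM1, IFI6, IFI27, IFI44L and TDRD7, 9 in all, passed it only through the Zab libraries, so their level there is also what let them be tested. Their calls in tests that use the Zab libraries, and counts that include them, are given as a description. For the limma calls of each comparison, counts over the other 20 stand beside them. Medians, counts with a 2-fold requirement, counts by role and counts under alternatives were not taken over those 20 alone. The other 19 are described by their tags further on.

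Zab against WT asks what differs with Zab when MYC is not overexpressed. Interferon-stimulated effectors of nearly every role were higher in Zab. ISG15, the ubiquitin-like modifier, was 16.0-fold higher, IFI6, a small mitochondrial and endoplasmic reticulum protein, 22.8-fold, IFI44L 36.9-fold and IFIT1, which binds foreign 5′ ends of RNA, 5.94-fold. Of the 29 tested effectors, 25 were called higher and 0 lower (limma, adjusted p under 0.05), where 13.1% of all tested genes were called higher and 11.3% lower. Of the 20 that passed the filter without the Zab libraries, 16 were called higher, against 13.2% of the 9403 genes that passed in that way. At least 2-fold higher and called were 22, and 0 were so lower, against 2.43% and 3.5% of all tested genes. The median log2 fold change was 1.64 over the tested effectors and 0.00 over all tested genes. The 2-fold count and the median include the 9 that passed only through the Zab libraries, so they are a description. UBE2L6, TRIM5, TRIM21 and TRIM22 were the 4 without a call. The summed level of all 48 effectors was 1333 and 1329 CPM in the WT libraries and 4255 and 4237 in the Zab libraries, of which ISG15, IFITM3 and LGALS3BP made up 2428 and 2434. Because these are bulk RNA samples, more cells of a responding kind and more RNA per cell cannot be told apart. On the deposited scale, where all tested genes shift by a median log2 of -0.51, 21 effectors were called higher and 2 lower. DESeq2 called 16 higher and gave no adjusted p for 9.

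MYC against WT asks what differs with overexpressed MYC alone. A part of the effectors was lower in MYC, led by IFIT1, TRIM22, a ubiquitin ligase, SAMD9, a cytoplasmic antiviral protein, and the ADP-ribosyltransferases PARP10 and PARP14. Of the 29 tested effectors, 14 were called lower and 4 higher by limma, where 30.4% of all tested genes were called lower and 27.8% higher. Those lower numbered 9 without MYC replicate 2 and 9 with DESeq2, which called 12 in all. With the added 2-fold requirement 12 were lower and 0 higher, against 18.4% and 12.3% of all tested genes. Of the 20 that passed the filter without the Zab libraries, limma called 11 lower and 4 higher at any fold. Of all genes that passed in that way, 30.3% were called lower and 28.6% higher. The median log2 fold change was -0.61 over the tested effectors and -0.04 over all tested genes. The 4 higher ones were IFITM2, IFITM3, PARP12 and TRIM25, all by less than 2-fold, and the calls of IFITM2 and PARP12 ended with library totals in place of TMM (limma adjusted p = 0.07 and 0.063). Without MYC replicate 1 the PARP12 value was 0.29 (limma adjusted p = 0.51) and the IFITM2 value 0.32 (limma adjusted p = 0.059), and without WT replicate 1 the PARP12 value was 0.58 (limma adjusted p = 0.13).

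Zab+MYC against Zab asks what differs with MYC when Zab is present. Here the effectors were lower in Zab+MYC. IFI6 was 45.5-fold lower, IFIT1 23.7-fold, IFI44L 22.1-fold and ISG15 19.4-fold. Of the 29 tested effectors, 27 were called lower and 0 higher by limma, where 12.5% of all tested genes were called lower and 14.3% higher. Of the 20 that passed the filter without the Zab libraries, 18 were called lower, against 12.1% of all genes that passed in that way. With the 2-fold requirement 24 of the 29 were lower and 0 higher, against 4.67% and 2.52% of all tested genes. The median log2 fold change was -1.74 over the effectors and -0.01 over all tested genes. This 2-fold count and median also include the 9 that passed only through the Zab libraries, so they are a description. UBE2L6 (log2 -0.58, limma adjusted p = 0.095) and TRIM5 (log2 -0.37, limma adjusted p = 0.16) were the 2 without a call. The comparison shares its Zab libraries with Zab against WT, so the values of both are given side by side below and no overlap is drawn from them. ADAR was 5.84-fold below Zab in Zab+MYC (limma log2 -2.55 ± 0.06, SE). DESeq2 called 15 effectors lower and gave no adjusted p for 8.

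Zab+MYC against MYC asks what differs with Zab when MYC is overexpressed. A few effectors were higher, PARP10 by 4.41-fold, TRIM22 by 6.15-fold, TRIM5, a restriction factor of retroviral capsids, by 2.79-fold, LGALS3BP, a secreted glycoprotein, by 2.22-fold and ISG15 by 1.96-fold. Of the 29 tested effectors, 7 were called higher and 1 lower by limma, where 11.8% of all tested genes were called higher and 8.14% lower. Of the 20 that passed the filter without the Zab libraries, 7 were called higher and 1 lower. Of all genes that passed in that way, 11.9% were called higher and 8.37% lower. With the 2-fold requirement 6 were higher and 0 lower, against 4.96% and 0.32% of all tested genes, and the median log2 fold change was 0.12 over the effectors and 0.00 over all tested genes. IFI6, IFI27, IFI44L, IFIT3 and the IFITM genes were not called higher, with log2 fold changes from -0.57 (IFITM1) to 0.01 (IFIT3). Zab against WT and Zab+MYC against MYC have no library in common. ISG15, SAMD9, LGALS3BP, PARP10 and PARP14 were called higher in both, which is 5 of 25 and 5 of 7. Over all tested genes 130 were called higher in both, 10.2% of those higher in Zab against WT and 11.3% of those higher in Zab+MYC against MYC. Of the 29 tested effectors 86.2% were called higher in Zab against WT, so most of any 7 effectors would be shared. The 25 also include the 9 that passed the filter only through the Zab libraries. No agreement is drawn from the overlap. On the deposited scale 7 were called higher and 3 lower. DESeq2 called 4 higher and gave no adjusted p for 16.

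Whether the Zab difference itself differed with overexpressed MYC was tested by the interaction, the log2 fold change of Zab+MYC against MYC minus that of Zab against WT. It was called negative for 14 of the 29 tested effectors, where 13.3% of all tested genes were called so, and positive for 1, TRIM5, where 14.6% of all tested genes were. Of the 20 that passed the filter without the Zab libraries, 9 were called negative, against 13.5% of all genes that passed in that way. All 15 values called over the 29 were also past 1 on the log2 scale, which 5.17% of all tested genes were below 0 and 9.46% above 0. They include genes that passed the filter only through the Zab libraries, so that count is a description. On the deposited scale, where the median of all tested genes is 0.22, 13 were called negative and 3 positive. The values furthest from 0 were those of IFI44L (-4.33 ± 0.61, SE, limma adjusted p = 3.3e-08), IFI6 (-4.15 ± 0.57, limma adjusted p = 1.3e-08), ISG15 (-3.01 ± 0.25, limma adjusted p = 8.5e-17), IFITM1 (-2.96 ± 0.60, limma adjusted p = 8.1e-05) and IFI27 (-2.92 ± 0.84, limma adjusted p = 0.0056). The ADAR level was 22.7-fold above WT in Zab and 4.34-fold above MYC in Zab+MYC, so the Zab difference was taken at unequal ADAR levels. The MYC transcript was also unequal, 2.51-fold above the WT libraries in Zab and 1.79-fold below the MYC libraries in Zab+MYC. The part of either level in the interaction was not tested. The IFI27 call, for a gene with 0 tags in 6 of 8 libraries, ended with edgeR (adjusted p = 1).

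**Figure D2:**
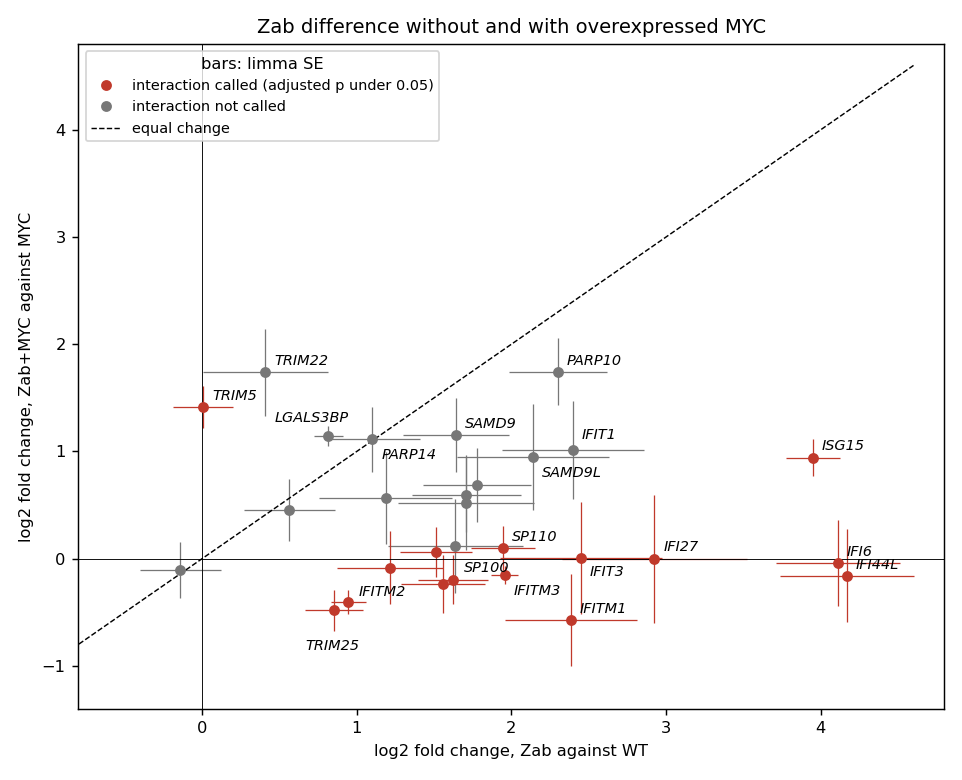
Each point is 1 of the 29 tested effectors, with the log2 fold change of Zab against WT on the x axis and of Zab+MYC against MYC on the y axis, and bars show the limma SE. Red points had a called interaction and the dashed line marks equal change. IFI44L, IFI6 and IFI27 lie near 0 on the y axis and between 2.92 and 4.17 on the x axis, and TRIM5 and TRIM22 lie above the line.

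In Zab+MYC against WT, with both factors against neither, few effectors had a call. The share called lower (24.1%) was near that of all tested genes, and the share called higher (3.45%) was below it. Of the 29 tested, 1 was called higher (IFITM3) and 7 lower by limma, where 21.6% of all tested genes were called higher and 20.6% lower. Of the 20 that passed the filter without the Zab libraries, 1 was called higher and 6 lower. Of all genes that passed in that way, 22.2% were called higher and 20.9% lower. The 7 lower were IFIT1, SAMD9, PARP9, HERC6, PARP14, UBE2L6 and LGALS3BP, with log2 fold changes from -1.73 to -0.53. Of these 7, 4 were at least 2-fold lower, against 9.97% of all tested genes (higher, 0 effectors against 6.9%). The count of calls was 5 without WT replicate 1, 3 without Zab+MYC replicate 1, 5 without Zab+MYC replicate 2, 5 with no filter and 1 with DESeq2. On the deposited scale 11 were lower and 0 higher.

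**Figure D3:**
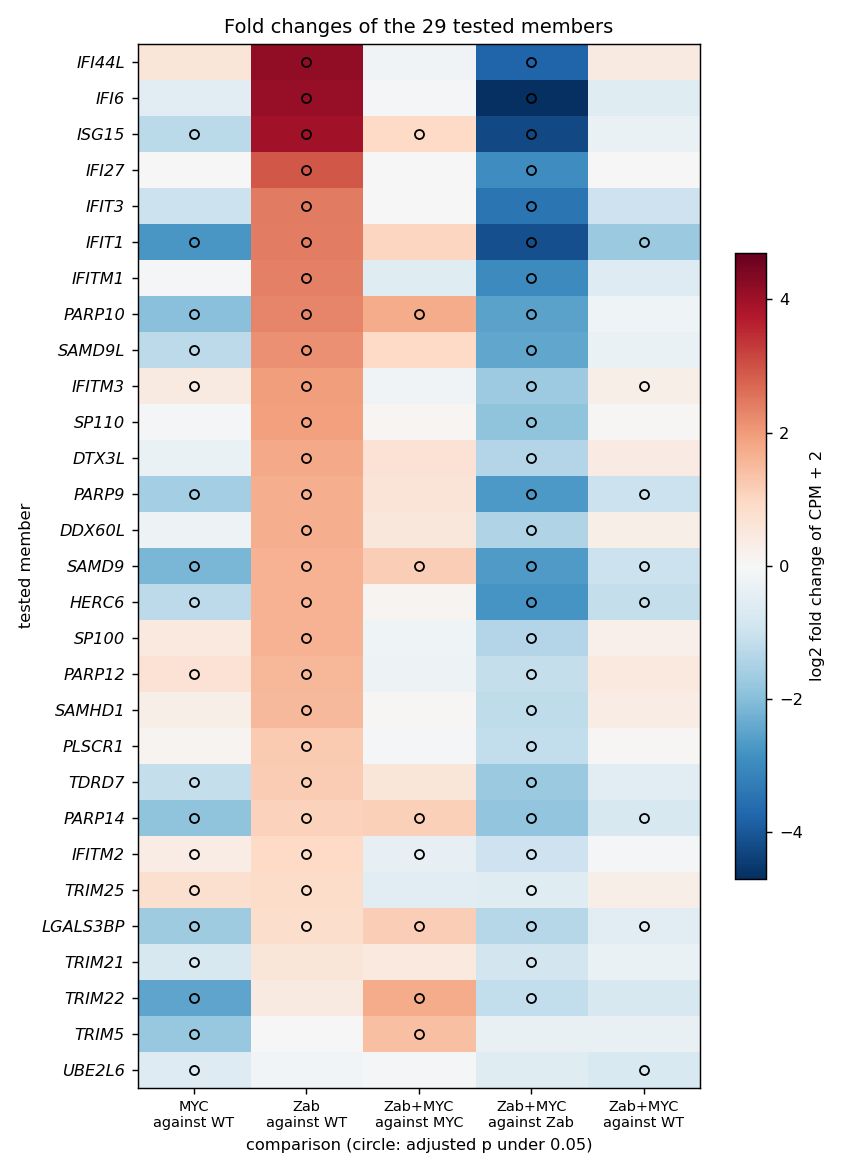
Heat map of log2 fold changes of CPM + 2 for the 29 tested effectors (y axis) in 5 comparisons (x axis), with circles where the limma adjusted p is under 0.05. The second column, Zab against WT, holds 25 calls, all higher, and the fourth column, Zab+MYC against Zab, holds 27 calls, all lower.

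The IFI genes, a set named only for their induction by interferon, had 3 of 7 members tested, and all 3 passed the filter only through the Zab libraries, so that their higher calls in Zab against WT, with log2 fold changes from 2.92 to 4.17, are a description. IFI6 (chromosome 1, 27992575 to 27998703, minus strand, hg19) lay at 3.79 and 6.36 CPM without either factor, 2.80 and 2.78 with MYC alone, 118 and 118 with Zab alone and 1.46 and 4.25 with both. IFI44L (chromosome 1, 79086133 to 79111830, plus strand) stood at 1.26 and 2.12, 3.74 and 3.17, 67.4 and 60.6, and 2.92 and 2.84 CPM in the same order. Both genes were high in the Zab libraries alone, and these did not overlap with any other library. IFI44L was counted on different transcripts in WT and Zab. IFI6 was 22.8-fold above WT in Zab (interval 11.7 to 50.7, limma log2 4.1 ± 0.40, SE, adjusted p = 1.5e-13), and IFI44L 36.9-fold (interval 12.3 to 183, limma log2 4.17 ± 0.43, adjusted p = 1.6e-12). In Zab+MYC against Zab, IFI6 was lower by 45.5-fold (interval 17.2 to 128) and IFI44L by 22.1-fold (interval 9.20 to 69.9). IFI27 (chromosome 14, 94577082 to 94583027, plus strand), a mitochondrial membrane protein, had 9 and 11 tags in the Zab libraries and 0 in each of the other 6. Against the floor of 3 tags over a group it was at least 7.65-fold above WT in Zab and at least 7.63-fold below Zab in Zab+MYC. None of the 3 was called in MYC against WT or in Zab+MYC against MYC, where both groups lay within a few tags of 0.

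ISG15 (chromosome 1, 948877 to 949919, plus strand) is joined to other proteins by the E1 enzyme UBA7, the E2 enzyme UBE2L6 and the ligase HERC5, and is removed by USP18. It had 55.5 and 54.0 CPM in the WT pair of libraries, 16.3 and 28.9 in the MYC pair, 845 and 906 in the Zab pair and 50.1 and 38.3 in the Zab+MYC pair. The Zab libraries were far above all others, and the MYC libraries were below all others. ISG15 was 16.0-fold above WT in Zab (interval 13.03 to 19.98, limma log2 3.95 ± 0.18, SE, adjusted p = 8.2e-31) and 2.36-fold below WT in MYC (interval 1.67 to 3.36, limma log2 -1.25 ± 0.18, adjusted p = 4.3e-09). With both factors it was 1.96-fold above MYC (interval 1.38 to 2.84) and 19.4-fold below Zab (interval 15.3 to 24.5). Its E2 enzyme was not called in Zab against WT. UBE2L6 gave 34.7 and 44.5 CPM in the WT libraries, 24.8 and 25.4 with MYC, 38.0 and 33.0 with Zab and 20.9 and 25.5 with both, with a Zab to WT ratio of 0.883 (interval 0.617 to 1.30). Its lower call in MYC against WT (limma log2 -0.61, adjusted p = 0.041) ended with RLE scaling (limma adjusted p = 0.052) and without WT replicate 2 or either MYC library (limma adjusted p 0.11 to 0.28). HERC6, a relative of HERC5, lay at 6.31 and 12.2 CPM without either factor, 3.27 and 1.98 with MYC alone, 26.5 and 37.9 with Zab alone and 1.95 and 4.25 with both. Its libraries did not overlap between Zab and any other genotype, and its call in Zab against WT (limma log2 1.64 ± 0.44) ended without WT replicate 1 (1.25, limma adjusted p = 0.1) or Zab replicate 2 (1.39, limma adjusted p = 0.069).

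The IFIT proteins bind RNA that lacks a host cap and block its translation. IFIT1 (chromosome 10, 91152303 to 91166244, plus strand) had 12.6 and 12.7 CPM in the WT pair of libraries, 0 and 0.397 in the MYC pair, 75.3 and 75.3 in the Zab pair and 0 and 7.80 in the Zab+MYC pair. It was 5.94-fold above WT in Zab (interval 3.74 to 9.85, limma log2 2.40 ± 0.46, SE, adjusted p = 2.5e-05), a call that DESeq2 did not make (adjusted p = 0.31). In MYC it had 0 and 0.5 tags against 10 and 12 in WT (limma log2 -2.74 ± 0.46, adjusted p = 3.6e-07). The Zab+MYC libraries disagreed, with 0 and 5.5 tags, and the log2 fold change against Zab was -2.98 without replicate 1 and -5.27 without replicate 2. Against WT it was -0.58 (limma adjusted p = 0.32) and -2.88 in the same way, and against MYC it was called only without Zab+MYC replicate 1 (2.16, limma adjusted p = 0.001) or with edgeR. IFIT3 (chromosome 10, 91087754 to 91100725, plus strand), the partner that stabilizes IFIT1, gave 2.52 and 3.18 CPM in the WT libraries, 0.934 and 0 with MYC, 24.4 and 24.5 with Zab and 0.973 and 0 with both. Only the Zab libraries were high. IFIT3 was 8.49-fold above WT in Zab (interval 3.33 to 27.7, limma log2 2.45 ± 0.52, adjusted p = 0.00017), and had 37 tags over the Zab libraries against 1 over Zab+MYC.

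The IFITM proteins sit in membranes and block virus fusion. IFITM1, IFITM2 and IFITM3 are neighbours of closely similar sequence on chromosome 11, and the sources used here do not say how reads they share were assigned, which leaves the split between them uncertain. IFITM3 (319676 to 320860, minus strand) lay at 216 and 217 CPM without either factor, 269 and 312 with MYC alone, 860 and 833 with Zab alone and 270 and 251 with both. It was 3.90-fold above WT in Zab (interval 3.48 to 4.39, limma log2 1.96 ± 0.09, SE, adjusted p = 6.9e-31), 1.35-fold above WT in MYC (interval 1.19 to 1.53) and 3.23-fold below Zab in Zab+MYC (interval 2.90 to 3.60). IFITM1 (314040 to 315272, plus strand) stood at 5.05 and 5.30, 5.60 and 4.36, 30.1 and 41.6, and 1.95 and 3.54 CPM in the order WT, MYC, Zab and Zab+MYC. Its MYC and WT libraries overlapped, and its Zab level was 7.01-fold that of WT (interval 3.44 to 16.1, limma adjusted p = 7.7e-06). IFITM2 (308107 to 309410, plus strand) stood at 150 and 141, 192 and 182, 279 and 285, and 143 and 140 CPM in the same order. It was higher in Zab by 1.94-fold (interval 1.66 to 2.28, limma adjusted p = 1.7e-10) and was the 1 tested effector called lower in Zab+MYC against MYC (log2 -0.40 ± 0.11, limma adjusted p = 0.0062). That lower call ended without MYC replicate 1 (-0.37, limma adjusted p = 0.094) and with DESeq2 (adjusted p = 0.063).

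Among the other membrane and secreted proteins, LGALS3BP (chromosome 17, 76967337 to 76976005, minus strand) differed with each factor. It had 402 and 401 CPM in the WT pair of libraries, 139 and 111 in the MYC pair, 723 and 695 in the Zab pair and 269 and 285 in the Zab+MYC pair, with no overlap between any pair of genotypes. It was 3.24-fold below WT in MYC (interval 2.82 to 3.73, limma log2 -1.68 ± 0.09, SE, adjusted p = 1e-26) and 1.76-fold above WT in Zab (interval 1.60 to 1.94). In Zab+MYC it was 2.22-fold above MYC (interval 1.92 to 2.58, limma log2 1.14 ± 0.09, adjusted p = 5e-17). Its interaction was 0.33 ± 0.13 and was not called (limma adjusted p = 0.051), but it was called with library totals (0.42, limma adjusted p = 0.0091), on the deposited scale (0.54, 0.0006), with replicate number as a block (limma adjusted p = 0.041), among genes of 1 transcript (0.019) and without MYC replicate 1 (0.0057). PLSCR1, a phospholipid scramblase, stood at 11.99 and 11.1 CPM in WT and 30.8 and 28.2 in Zab, and at 14.0 and 11.9 in MYC and 14.6 and 9.92 in Zab+MYC. Only its Zab libraries stood apart (2.55-fold over WT, interval 1.49 to 4.61, limma adjusted p = 0.005), and on the deposited scale that call ended (limma adjusted p = 0.068).

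**Figure D4:**
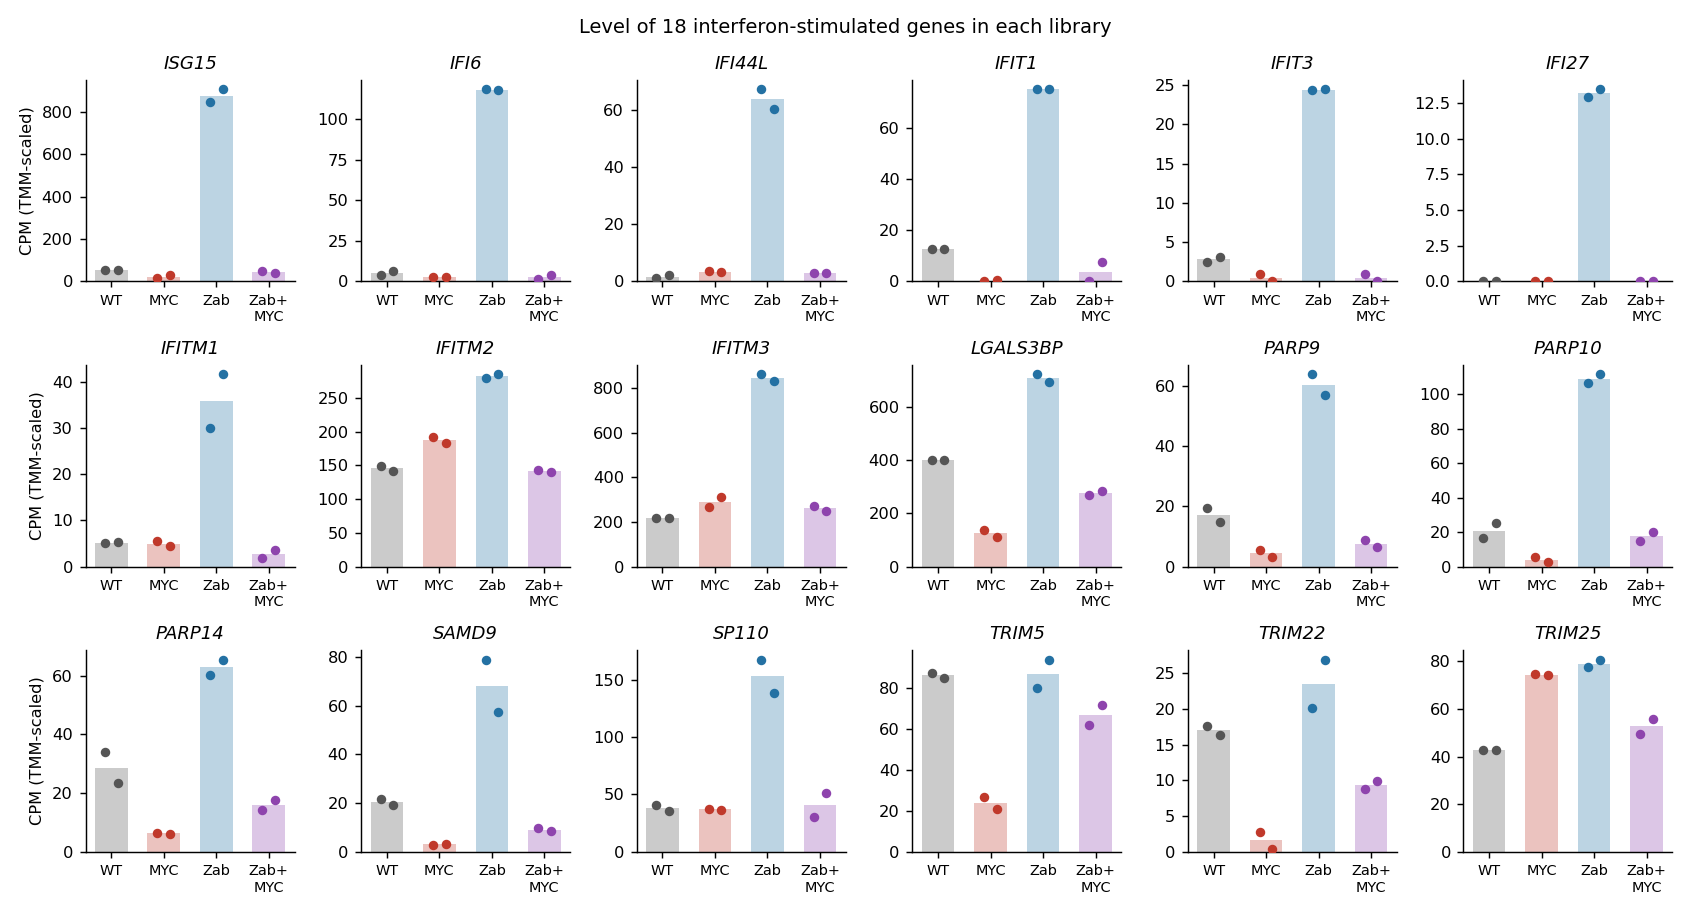
Level of 18 effectors in CPM (y axis, linear, a separate scale per gene) by genotype (x axis). Points are libraries and bars their mean. ISG15, IFI6, IFI44L, IFIT3, IFI27 and IFITM1 are high in Zab alone, and TRIM5 and TRIM22 are low in MYC with little difference between Zab and WT.

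Enzymes that act on nucleic acids or nucleotides, and the SAMD9 proteins, which restrict poxviruses, included 4 tested members. SAMD9 (chromosome 7, 92728831 to 92747292, minus strand) gave 21.5 and 19.1 CPM in the WT libraries, 2.80 and 3.17 with MYC, 78.9 and 57.5 with Zab and 9.73 and 8.51 with both. The 4 genotypes did not overlap. SAMD9 was 6.71-fold below WT in MYC (interval 2.94 to 17.9, limma log2 -2.16 ± 0.34, SE, adjusted p = 1.3e-07) and 3.34-fold above WT in Zab (interval 2.26 to 5.06, limma adjusted p = 0.00013). It was 3.08-fold above MYC in Zab+MYC (interval 1.20 to 8.84, limma adjusted p = 0.01), a call that ended without MYC replicate 1 (1.10, limma adjusted p = 0.063) or Zab+MYC replicate 1 (1.06, limma adjusted p = 0.073). SAMD9L, its neighbour and paralog, was 5.82-fold higher in Zab (interval 2.59 to 15.7). SAMHD1, which breaks down the nucleotides that viruses need for DNA synthesis, lay at 22.7 and 32.3 CPM without either factor, 32.2 and 34.1 with MYC alone, 77.5 and 85.1 with Zab alone and 34.1 and 35.4 with both. It was 2.92-fold higher in Zab (interval 2.11 to 4.23) and did not differ by call between WT and MYC. SAMHD1 overlaps TLDC2 on the other strand, and the sources used here do not say whether tags were counted by strand. DDX60L, a helicase, was 4.18-fold higher in Zab (interval 1.84 to 9.43), a call that ended without Zab replicate 1 (log2 1.47, limma adjusted p = 0.053).

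The ADP-ribosylation genes encode PARP9 with its partner, the ubiquitin ligase DTX3L, and the mono-ADP-ribosyltransferases PARP10, PARP12 and PARP14. All 5 were tested, and 5 were called higher in Zab against WT (all tested genes 13.1%). PARP10 (chromosome 8, 145051326 to 145060628, minus strand) had 16.4 and 25.4 CPM in the WT pair of libraries, 5.60 and 2.38 in the MYC pair, 106 and 111 in the Zab pair and 15.1 and 19.8 in the Zab+MYC pair. The Zab libraries were highest and the MYC libraries lowest, while Zab+MYC overlapped WT. PARP10 was 5.11-fold above WT in Zab (interval 3.56 to 7.52, limma log2 2.30 ± 0.31, SE, adjusted p = 1.2e-08), 5.52-fold below WT in MYC (interval 2.62 to 13.01, limma adjusted p = 1.5e-07) and 4.41-fold above MYC in Zab+MYC (interval 2.08 to 10.7, limma adjusted p = 1.5e-05). PARP14 (chromosome 3, 122399686 to 122449687, plus strand) stood at 34.1 and 23.3, 6.54 and 5.95, 60.3 and 65.5, and 14.1 and 17.7 CPM in the order WT, MYC, Zab and Zab+MYC, with no overlap between genotypes. It was 4.54-fold below WT in MYC (interval 2.42 to 8.42, limma adjusted p = 2.2e-07), 2.24-fold above WT in Zab (interval 1.58 to 3.24, limma adjusted p = 0.0042) and 2.51-fold above MYC in Zab+MYC (interval 1.24 to 4.90, limma adjusted p = 0.0052). The Zab call ended without WT replicate 2 (log2 0.84, limma adjusted p = 0.11) and the last one without Zab+MYC replicate 2 (0.97, limma adjusted p = 0.081). PARP9 (chromosome 3, 122250633 to 122283147, minus strand) stood at 19.6 and 14.8, 5.60 and 3.17, 63.8 and 56.9, and 8.76 and 6.38 CPM in the same order. It was 3.96-fold below WT in MYC (interval 1.92 to 9.24), and 7.72-fold below Zab in Zab+MYC (interval 4.21 to 14.1). DTX3L was not called in MYC against WT (log2 -0.29 ± 0.35, limma adjusted p = 0.48) and was 3.80-fold higher in Zab (interval 2.25 to 6.73). PARP12 went the other way in MYC, at 16.4 and 20.1 CPM in WT and 41.1 and 22.6 in MYC.

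SP100 and SP110 are components of nuclear bodies, and TDRD7 is a Tudor protein of RNA granules. SP110 gave 41.0 and 35.5 CPM in the WT libraries, 37.4 and 36.9 with MYC, 168 and 139 with Zab and 30.7 and 51.7 with both. SP100 stood at 22.7 and 37.1, 36.4 and 44.4, 96.1 and 91.2, and 40.9 and 29.8 CPM in the same order. For both genes the WT, MYC and Zab+MYC libraries overlapped and the Zab libraries lay above them. SP110 was 4.01-fold above WT in Zab (interval 3.04 to 5.36, limma adjusted p = 4e-12) and SP100 3.06-fold (interval 2.23 to 4.30, limma adjusted p = 2.7e-08). Neither was called in MYC against WT or in Zab+MYC against MYC. SP100 and TDRD7 shared no transcript between the WT and Zab libraries, so their folds in Zab against WT compare different transcripts. SP100 also shared none between the WT and MYC libraries, so its values in MYC against WT and the interaction have the same limit. TDRD7 was 2.52-fold higher in Zab (interval 1.31 to 4.73, limma adjusted p = 0.033), a call that ended without any 1 of the WT or Zab libraries (limma adjusted p 0.054 to 0.25).

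Of the 4 TRIM ubiquitin ligases, all tested, 1 was called higher in Zab against WT (all tested genes 13.1%), and 3 were called lower and 1 higher in MYC against WT (all tested genes 30.4% and 27.8%). The lower call of TRIM21 ended with no filter (limma adjusted p = 0.065), without WT replicate 1 (0.22) or MYC replicate 2 (0.18) and with DESeq2 (adjusted p = 0.17). TRIM5 (chromosome 11, 5684425 to 5706304, minus strand) lay at 87.1 and 84.8 CPM without either factor, 26.6 and 21.0 with MYC alone, 79.6 and 93.6 with Zab alone and 61.8 and 71.6 with both. The WT and Zab libraries overlapped and the MYC libraries were the lowest. TRIM5 was 3.64-fold below WT in MYC (interval 2.65 to 5.05, limma log2 -1.78 ± 0.19, SE, adjusted p = 1.2e-12) and 2.79-fold above MYC in Zab+MYC (interval 2.004 to 3.92, limma log2 1.42 ± 0.19, adjusted p = 2.1e-08). Its Zab to WT ratio was 1.02 (interval 0.798 to 1.29), and on the deposited scale its log2 fold change turned to -0.52. TRIM22 (chromosome 11, 5711020 to 5732093, plus strand), which lies beside TRIM5, had 17.7 and 16.4 CPM in the WT pair of libraries, 2.80 and 0.397 in the MYC pair, 20.1 and 26.9 in the Zab pair and 8.76 and 9.92 in the Zab+MYC pair. It was 11.3-fold below WT in MYC (interval 3.42 to 38.1, limma log2 -2.49 ± 0.41, adjusted p = 2.2e-07) and 6.15-fold above MYC in Zab+MYC (interval 1.74 to 22.1, limma log2 1.74 ± 0.41, adjusted p = 0.00087), a call that ended without MYC replicate 2 (1.24, limma adjusted p = 0.069). TRIM25, the ligase that activates the RNA sensor RIG-I, gave 42.9 and 42.9 CPM in the WT libraries, 74.7 and 74.2 with MYC, 77.5 and 80.8 with Zab and 49.6 and 56.0 with both. It was higher with each factor alone, by 1.73-fold in MYC (interval 1.33 to 2.33) and 1.85-fold in Zab (interval 1.36 to 2.48), and on the deposited scale the Zab call ended (limma adjusted p = 0.14). With both factors it was not called against WT (log2 0.29 ± 0.19, limma adjusted p = 0.22), and its interaction was -1.34 ± 0.27 (limma adjusted p = 5.3e-05). TRIM25 was also not called in Zab+MYC against MYC. There it was called lower with RLE scaling (log2 -0.52, limma adjusted p = 0.038) and edgeR (-0.53, adjusted p = 0.021). The same call came on the deposited scale, with a filter of 5 CPM in 2 libraries and with only the libraries compared (limma adjusted p 0.00042 to 0.038). TRIM21, an antibody receptor in the cytoplasm, was not called in Zab against WT (1.52-fold, interval 1.02 to 2.30, limma adjusted p = 0.16).

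Compared per kilobase of transcript, IFITM3 was the highest of the tested effectors in WT at 356 CPM per kilobase, ahead of IFITM2 at 200 and LGALS3BP at 183, and ISG15 stood at 86.5. In Zab, IFITM3 stood at 1392 and ISG15 at 1383 CPM per kilobase, ahead of IFITM2 at 388. In Zab+MYC the order of the first 4 was that of WT, with IFITM3 at 428, IFITM2 at 194, LGALS3BP at 126 and ISG15 at 69.8.

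The 19 effectors below the filter had at most 11 tags in a library, so that differences among them were mostly not detectable at this depth. MX2, a large GTPase that blocks retroviral entry to the nucleus, had 8.5 and 7 tags in the Zab pair of libraries against 0.5 and 0 for WT, 1 and 0 for MYC and 0 in both of Zab+MYC, at least 5.91-fold below Zab in Zab+MYC against the floor. Fractions of a tag arise because a tag was taken as 2 of the smallest steps in the deposited values. IFI44 had 1.5 and 1, 2 and 0, 8.5 and 7.5, and 0.5 and 0 tags in the order WT, MYC, Zab and Zab+MYC. DDX60, a helicase that assists RIG-I, had 1 and 3, 0 and 0, 6.5 and 9.5, and 0 and 1. RSAD2, also called viperin, an enzyme that makes a chain-terminating nucleotide, had 3 and 4 tags in Zab and 0 in the other 6 libraries, which is at least 2.68-fold above WT. RTP4 had 2 and 4 tags in Zab and 0 elsewhere, at least 2.29-fold above WT. IFI35 had 2 and 3 tags in Zab, 1 in WT replicate 2 and 0 elsewhere, and IFIT2 had 4 and 2 tags in Zab and 2 and 0 in WT. The sum over the Zab libraries was the highest of the 4 genotypes for 13 of the 19, against 14.5% of the 7294 untested genes with a tag in any library. The other 6 were HERC5, IFIT5, CMPK2, LAMP3, GBP1 and EPSTI1. Of these, IFIT5 had its most tags with MYC alone, 11 and 9. It had 7 and 3 for WT, 7 and 1 with Zab alone and 4 and 2 with both. Among the 13 highest in Zab, ISG20, an exonuclease, had 2 to 6.5 tags in each library. Also among the 13, MX1, the best-known induced GTPase, had 0 to 2 tags in each library, and BST2, which tethers virus particles, 0 to 1. USP18, of the 13 as well, had 0 and 1, 1 and 2, 3.5 and 5.5, and 1 and 0 tags in the order WT, MYC, Zab and Zab+MYC. It was 10.3-fold above WT in Zab (interval 1.43 to 452). UBA7 and XAF1, of the 13, had at most 6 tags in a library, as did CMPK2, GBP1, LAMP3, HERC5 and EPSTI1.

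**Figure D5:**
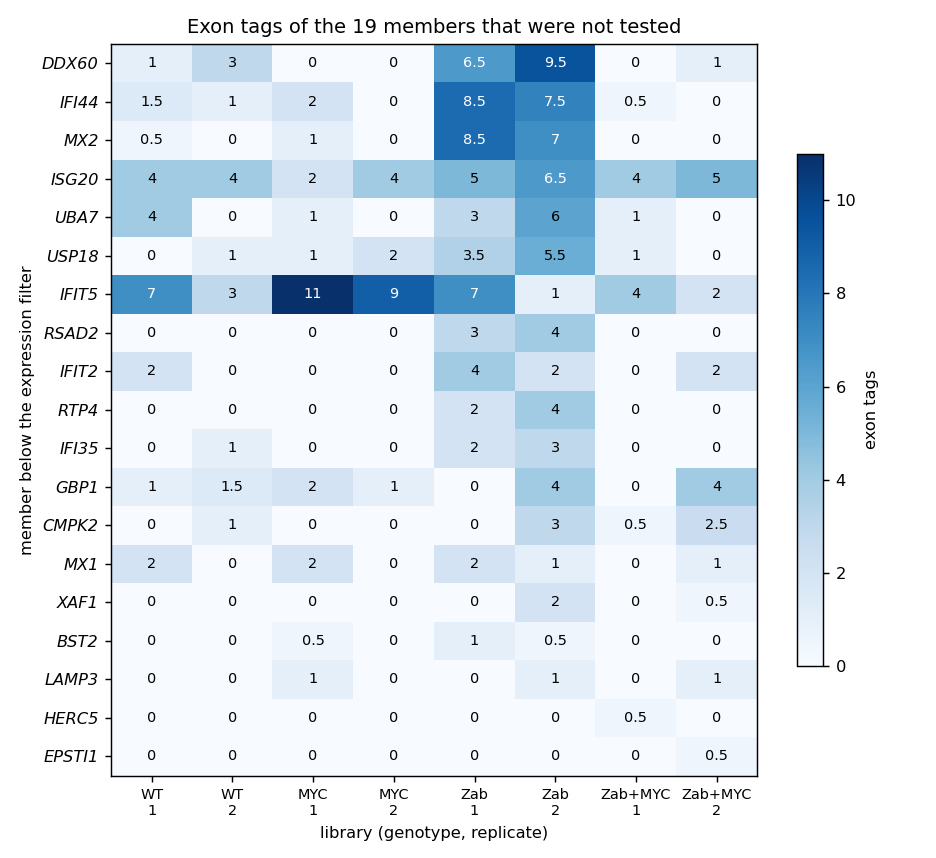
Exon tags of the 19 effectors below the filter (y axis) in each library (x axis, genotype and replicate), with the number written in each cell and darker cells for more tags. Tags of DDX60, IFI44, MX2, RSAD2, RTP4 and IFI35 lie mainly in the Zab libraries, and IFIT5 has its highest values, 11 and 9, in MYC.

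The rest of the pathway was read from lists chosen with earlier results of these data known, and its counts stand against 13.1% of all tested genes called higher and 11.3% lower in Zab against WT, and 30.4% called lower in MYC against WT. No interferon ligand was measurable: 14 of 15 had 0 tags in all 8 libraries, and IFNE had 1 tag in WT replicate 1. Of the 7 tested receptors and JAK kinases, 0 were higher and 1 lower in Zab against WT by limma (IFNGR2, a chain of the interferon gamma receptor, log2 -0.61 ± 0.22), and 5 were lower in MYC against WT. The OAS enzymes, which make the second messenger that activates RNase L, had 4 tested members, which passed the filter only through the Zab libraries, and 4 were called higher in Zab against WT and 4 lower in Zab+MYC against Zab (all tested genes 12.5%). OAS2 had 0 tags in both WT libraries and 25.5 and 24.5 in Zab, OAS1 had 4 and 0 against 26 and 29.5, and OAS3 had 4.5 and 5 against 51 and 57.5. The list of nucleic acid sensors, which also holds the editing enzyme ADAR, had 5 tested genes, of which 3 were higher in Zab. They were DDX58, the RNA sensor RIG-I (log2 2.22 ± 0.33), EIF2AK2, the RNA-activated kinase PKR (1.12 ± 0.18), and ADAR. The ADAR tags include any Zab transcript, so its call cannot be told apart from the introduced factor. ZBP1, the other human protein known for a Z-nucleic-acid-binding domain, had 0.5 tags in Zab+MYC replicate 2 and 0 in the other 7 libraries. Of 11 tested MHC class I genes, 4 were higher in Zab, led by PSMB8, an immunoproteasome subunit (1.21 ± 0.23), TAP1 (1.01 ± 0.20) and TAP2 (0.73 ± 0.22), peptide transporters. None of the 3 tested feedback inhibitors was called in Zab against WT by limma.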

How the data were processed

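Each library came as 1 table, in which the authors deposited an exon signal for each gene, a scaled and not a whole value. Per the file headers, analyzeRepeats of HOMER tallied exon tags for coding genes in RefSeq (hg19), with 1 transcript per symbol and with tag folders named for a spike-in. The submitters' processing notes name Trim Galore 0.6.6, STAR (version not given) and HOMER 4.11.1, and the builds hg19 and dm6 without a role. The sources used here give neither how the factor of each library was set nor whether strand was used.

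The values of a library all fell on multiples of 1 step (100% within 0.1 step). A tag was assumed to be 2 steps, which puts exon tags at 60.6% to 76.1% of the tag total in the header, while at 1 step they would exceed it. Tags were scaled with TMM, kept with filterByExpr (9673 genes) and fitted as log2(CPM + 2) by limma with a mean-variance trend, 1 mean per genotype and 4 residual degrees of freedom, and p-values were adjusted by Benjamini-Hochberg over all genes tested. The design had planned this fit for scaled values. edgeR's quasi-likelihood test on the recovered tags (common dispersion 0.000172) and DESeq2 were alternatives. On simulated data for MYC against WT (9673 genes) limma recovered 60% of genes changed 2-fold and 93% of those changed 4-fold. Of the 48 members, 24 were counted on 1 transcript in all 8 libraries. For 0 members did all WT and MYC libraries use 1 transcript that no Zab or Zab+MYC library used. This is a narrow rule. Among tested members, SP100, TDRD7, IFI44L, SAMD9L and IFI27 shared no transcript between WT and Zab, so their values in Zab against WT compare different transcripts. The same held in MYC against WT for SP100, IFI44L, SAMD9L, IFI27 and IFIT3. It also held for SAMD9L and IFI27 in Zab+MYC against Zab, and for these and IFI6 in Zab+MYC against MYC. In Zab+MYC against WT it held for SP100, TDRD7 and IFIT3.

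Members with values in every library were those called with the largest absolute fold change, 8 in each of Zab against WT, Zab+MYC against MYC and MYC against WT and 5 in each of the other tests, and those at 0 in 1 genotype and above the floor of 3 tags in another. A few more are given to describe each role. The members and lists were chosen with earlier results of these data known. Whether libraries with the same number deviate together was checked, and their correlations ran from -0.0226 to 0.0143. Tests were run in R 4.3.3 (edgeR 4.0.16, limma 3.58.1, DESeq2 1.42.0) and tables made in Python 3.11.15 with numpy 2.4.6, pandas 2.3.3 and scipy 1.17.1. The list of STAT and IRF factors is not reported here.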

Additional observations from a re-analysis of the deposited data

Results flagged for a closer look

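The Zab difference (log2 CPM + 2) was tested for whether it differed between cells with and without overexpressed MYC, and limma's interaction passed adjusted p under 0.05 for 15 of 29 tested effectors. Negative values mean a smaller Zab difference with MYC. They were -4.33 for IFI44L, -4.15 for IFI6, -3.01 for ISG15, -2.96 for IFITM1, -2.92 for IFI27, -2.44 for IFIT3 and -2.11 for IFITM3. Smaller sizes were found for SP110 (-1.85), SP100 (-1.82), PARP12 (-1.8), SAMHD1 (-1.45), IFITM2 (-1.35), TRIM25 (-1.34) and PLSCR1 (-1.3). IFI44L, IFI6, IFITM1, IFI27 and IFIT3 passed the filter on low values only through the Zab libraries. TRIM5 had the 1 positive value, 1.41, since it lay at 86.6 CPM in Zab and 85.9 in WT but at 66.7 in Zab+MYC and 23.8 in MYC. Of all genes tested, 13.3% had a called negative interaction and 14.6% a called positive one. ADAR, whose tags include any Zab transcript, was 22.7-fold above WT in Zab and 4.34-fold above MYC in Zab+MYC. The MYC transcript was 2.51-fold above the WT libraries in Zab and 1.79-fold below the MYC libraries in Zab+MYC. The part of either in these differences was not tested. The IFI27 call ended with edgeR (adjusted p = 1). The IFIT3 call ended with edgeR (adjusted p = 0.42) and without MYC replicate 1 (limma adjusted p = 0.058). The PLSCR1 call ended in 11 alternatives, with limma adjusted p from 0.05 to 0.13 in 10 and DESeq2 adjusted p = 0.27 in the other.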

How the results depend on the processing

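On the deposited scale, which shifted the median log2 of all tested genes by over 0.1 in every comparison except MYC against WT, IFITM3 in Zab+MYC against WT turned to -0.12 (limma adjusted p = 0.24) and TRIM5 in Zab against WT, not called at 0.01, was called at -0.52 (limma adjusted p = 0.02). Library totals in place of TMM moved the median of all tested genes from -0.04 to -0.16 in MYC against WT. Under the other alternatives run no called effector turned direction. Keeping to genes counted on 1 transcript throughout left 11 effectors to test. Calls then numbered 8 for MYC against WT, 10 for Zab against WT, 4 for Zab+MYC against MYC, 11 for Zab+MYC against Zab, 3 for Zab+MYC against WT and 8 for the interaction. DESeq2 called 16 for Zab against WT (9 without an adjusted p), 4 for Zab+MYC against MYC (16 without), 15 for Zab+MYC against Zab (8 without) and 1 for Zab+MYC against WT, and the cause of the last was not tested. For Zab+MYC against WT 5 were called with no filter, when 46 effectors were tested, and 4 with the added 2-fold requirement, an alternative chosen after seeing the data. Leaving out each library in turn gave 13 to 18 calls for MYC against WT, 23 to 25 for Zab against WT, 6 to 9 for Zab+MYC against MYC, 22 to 27 for Zab+MYC against Zab, 3 to 8 for Zab+MYC against WT and 14 to 16 for the interaction. A genotype left with 1 library was assumed to vary like the others.

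Replicate numbers do not pair the libraries (correlations in the methods). With replicate number as a block the count of calls was 16 for the interaction, against 15 without it (LGALS3BP was gained), and the same number as without it in the other comparisons. Depth limits the 19 untested effectors most, since 11 tags was their highest value in any library.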

Other observations

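Some effectors are neighbours in the genome, and their values in MYC against WT were set side by side after they had been seen (hg19). TRIM5 (chromosome 11, 5684425 to 5706304) and TRIM22 (5711020 to 5732093) lie next to each other, and both were lower in MYC (limma log2 -1.78 and -2.49) and not called in Zab against WT (0.01 and 0.41). PARP9 and DTX3L lie head to head on chromosome 3 and were both higher in Zab (1.71 and 1.78), while in MYC against WT PARP9 was lower (-1.60) and DTX3L was not called (-0.29). SAMD9 and SAMD9L are adjacent on chromosome 7 and were lower in MYC (-2.16 and -1.25) and higher in Zab (1.64 and 2.14). For SAMD9L neither the MYC nor the Zab libraries shared a transcript with WT. The SAMD9L call in MYC against WT ended without WT replicate 2 (limma adjusted p = 0.23) or MYC replicate 2 (limma adjusted p = 0.18), with a pseudocount of 5 CPM (limma adjusted p = 0.062) and with DESeq2 (adjusted p = 0.11). RSAD2 and CMPK2 are adjacent on chromosome 2. RSAD2 had 7 tags over the Zab libraries and 0 elsewhere, and CMPK2 had 3 over Zab, 3 over Zab+MYC, 1 over WT and 0 over MYC.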
